A study of Mus musculus and Rattus norvegicus with 6 samples.

Results

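The Hox cluster genes of the mouse were followed in smooth muscle cells (SMCs) in which YAP and TAZ had been knocked down. They were taken from the count table as every gene whose symbol is Hox, a cluster letter from a to d and a number, which gave 39 of 55573 genes. Hoxd13 was the most abundant of them, and the 16 genes of paralog groups 9 to 13 held most of the Hox RNA. After knockdown 4 Hox genes were higher, 9 were lower and 21 did not pass the test. The 13 genes called were 38.2% of the 34 Hox genes tested, below the 55.4% called of all genes tested. The 9 lower genes were 26.5%, near the 27.7% of all genes. Some direct neighbours on the same chromosome changed in opposite directions. Others, Hoxc8 to Hoxc11, fell together in the main test (edgeR), but none of these calls held in DESeq2, an alternative fit.

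Hox genes encode homeodomain transcription factors that give cells their position along the body axis. In mammals they lie in 4 clusters, HoxA to HoxD, and each gene belongs to 1 of 13 paralog groups, numbered by its place in the cluster. Genes with low numbers sit at the 3′ end of a cluster and are used early and towards the head, and genes with high numbers sit at the 5′ end and are used late, in the trunk, the limbs and the tail end of the body. Mesenchymal cells of the adult, including vascular smooth muscle and fibroblasts, keep much of the Hox code of the place they came from. In the mouse embryo, the group 13 genes Hoxa13 and Hoxd13 are needed for the digits and for the genital tubercle, from which the penis forms. YAP and TAZ are transcriptional coactivators that respond to stretch and stiffness and that reach DNA mainly through TEAD factors.

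Bulk RNA-seq of wild-type mouse SMCs comprised 2 libraries after control siRNA (siCo) and 2 after combined siRNA against both coactivators (siYAP/TAZ). TAZ is the product of Wwtr1. The sample labels name the cells MOVAS, an immortalised line from mouse aortic smooth muscle, whereas legends of the study call them primary SMCs of the penis. The sources used here do not state which siRNA mix was sequenced or whether replicate libraries were made from different cultures. P-values therefore measure only how these libraries vary, and that variation may be technical. Total counts were 17192309 to 18751368 per library.

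The targeted genes were checked first. Yap1 fell from 22.7 FPKM ± 1.16 (SD, n = 2) in siCo to 1.95 FPKM ± 0.111 (SD, n = 2) in siYAP/TAZ, where FPKM is the count scaled by exon length and library total. Wwtr1 fell from 57.8 FPKM ± 1.86 (SD, n = 2) to 17.2 FPKM ± 0.604 (SD, n = 2). Of 15479 genes that passed the filter on low counts, 8569 (55.4%) passed the edgeR test at an adjusted p under 0.05, so a call in these data is common.

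The label of the cells was set beside marker genes. All 10 smooth muscle markers were detected. Their summed level was 214 and 218 FPKM in siCo and 111 and 107 FPKM in siYAP/TAZ. In edgeR 6 of them were called lower, 1 (Des) was called higher and 3 did not pass. Acta2, the smooth muscle actin, had a mean of 140.0 FPKM in siCo, whereas Myh11, the smooth muscle myosin heavy chain, had 1.29 FPKM and Myocd, the coactivator of contractile genes, had 0.132 FPKM. Markers of other cell types were also present. The 8 endothelial markers summed to 110 and 108 FPKM in siCo and 131 and 137 FPKM in siYAP/TAZ, with the junction cadherin gene Cdh5 at 42.2 FPKM in siCo. They did not move together (87.5% called, compared with 55.4% of all genes), as 5 rose. Emcn fell from 22.3 to 16.3 FPKM and Kdr from 4.34 to 3.6 FPKM. The 8 fibroblast markers summed to 336 and 276 FPKM in siCo and 428 and 401 FPKM in siYAP/TAZ. In edgeR 7 of them were called higher and 1, Mfap5, lower. Of all genes tested, 27.6% were called higher and 27.7% lower. The 9 macrophage markers summed to 8.84 and 8.94 FPKM in siCo and 13.3 and 17.5 FPKM in siYAP/TAZ. Of these, Cd68 rose from 8.12 to 12.3 FPKM and Lyz2 from 0.499 to 2.82 FPKM, whereas Adgre1, Tyrobp, C1qa, C1qb and C1qc had no count in any library. Epithelial markers summed to 5.95 and 7.39 FPKM in siCo and 16.9 and 15.4 FPKM in siYAP/TAZ, and Schwann cell markers summed to less than 2 FPKM in every library. Among the epithelial markers only Krt8 and Krt18 were called higher, and Epcam and Cdh1 had group means of at most 0.0964 FPKM. In bulk RNA, fewer cells of a type cannot be told apart from less RNA per cell, and the part of these markers in the Hox results was not tested.

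Over ranges of paralog groups, the level of the Hox genes rose with the group number, although single groups and genes did not all keep this order. Of the 16 genes of groups 9 to 13, 14 reached a mean of 1 FPKM in at least 1 group, compared with 8 of the 11 genes of groups 5 to 8 and 1 of the 12 genes of groups 1 to 4. Groups 9 to 13 made up 79.6% and 79.9% of the summed Hox FPKM in the siCo libraries and 82.1% and 80.3% in the siYAP/TAZ libraries. Groups 1 to 4 made up 3.25% to 3.77%. The summed level of all 39 genes was 147 and 158 FPKM in siCo and 150.0 and 149 FPKM in siYAP/TAZ, so the ranges of the groups overlapped.

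**Figure D1:**
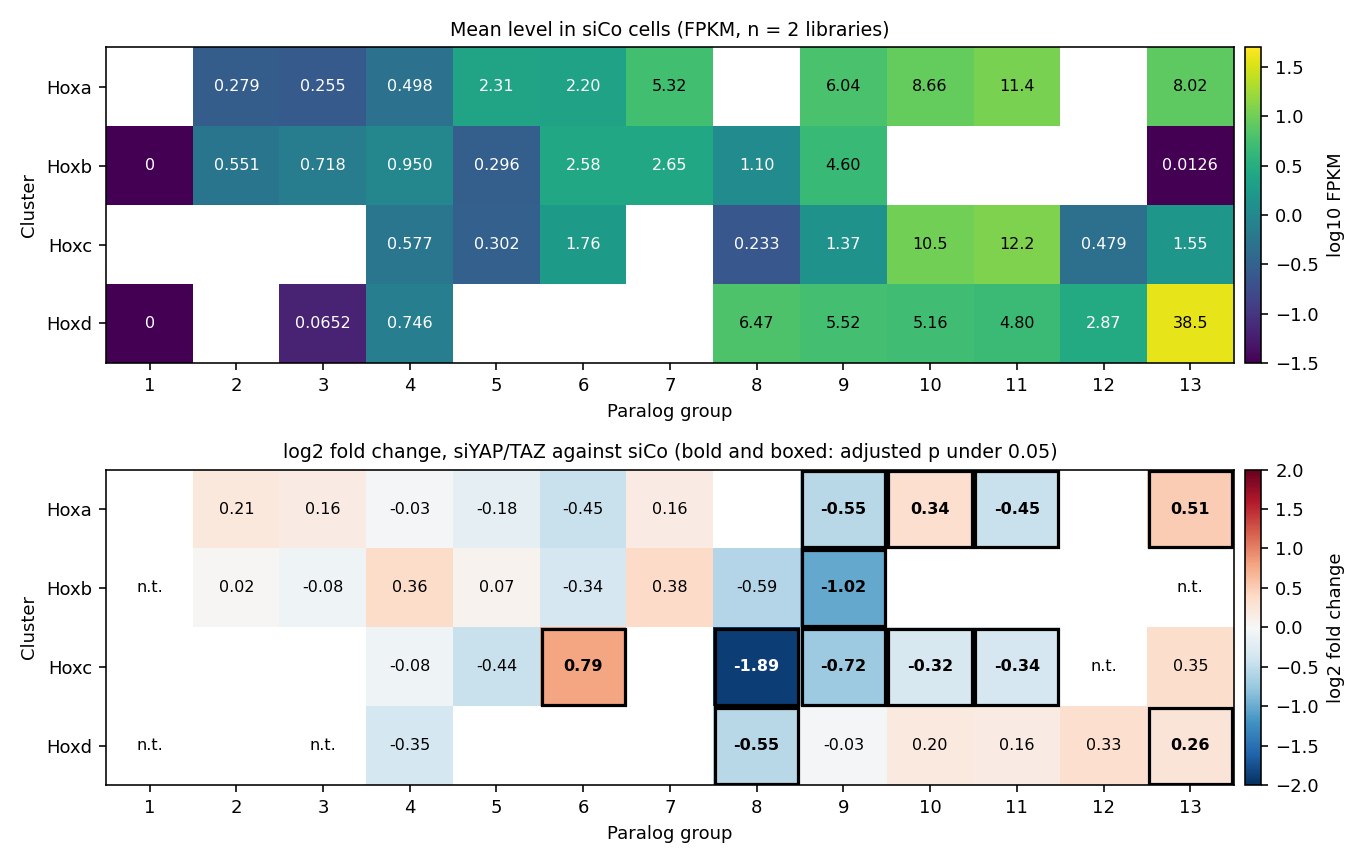
Mean FPKM in siCo (upper panel, colour on a log scale) and log2 fold change of siYAP/TAZ against siCo (lower panel) for the Hox genes described, placed by cluster (rows) and paralog group (columns). Blank cells hold no gene or no reported value, n.t. marks genes not tested and boxes mark an adjusted p under 0.05, and the highest value, 38.5 FPKM, is Hoxd13 at the right end of cluster D.

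The HoxD cluster held the largest share of the Hox RNA in every library, 42.0% and 42.1% in siCo and 45.7% and 47.2% in siYAP/TAZ. HoxA followed with 28.9% to 30.6%, HoxC with 15.6% to 19.5% and HoxB with 6.46% to 9.01%. The ranges of the 4 clusters did not overlap across libraries. By paralog group, group 13 had the highest summed level, 46.5 and 49.7 FPKM in siCo, and group 11 followed with 27.5 and 29.3 FPKM. Group 10 came next with 22.9 and 25.7 FPKM and group 9 with 16.7 and 18.3 FPKM. Group 12 broke the order by number, with 3.20 and 3.50 FPKM in siCo. This was below group 6 (6.93 and 6.16 FPKM), group 7 (7.54 and 8.40 FPKM) and group 8 (7.12 and 8.48 FPKM).

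Hoxd13 stood above all other Hox genes. It had 37.5 and 39.5 FPKM in siCo and 44.6 and 44.9 FPKM in siYAP/TAZ, and its siCo mean ranked 1477 of all 55573 genes. It alone held 25.0% and 25.5% of the Hox RNA in siCo and 29.8% and 30.1% in siYAP/TAZ. The next genes in order in siCo were Hoxc11 with a mean of 12.2 FPKM ± 0.335 (SD, n = 2), Hoxa11 with 11.4 FPKM ± 0.916 (SD, n = 2) and Hoxc10 with 10.5 FPKM ± 0.156 (SD, n = 2). Hoxc11 and Hoxa11 overlapped between libraries, as Hoxa11 ran from 10.8 to 12.1 FPKM and Hoxc11 from 12.0 to 12.4 FPKM. Below them, Hoxa10 with 8.66 FPKM ± 1.35 (SD, n = 2) and Hoxa13 with 8.02 FPKM ± 0.496 (SD, n = 2) also overlapped. In all, 12 Hox genes reached a mean of 5 FPKM in at least 1 group and 6 reached 10 FPKM (Hoxa10, Hoxa11, Hoxa13, Hoxc10, Hoxc11 and Hoxd13).

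**Figure D2:**
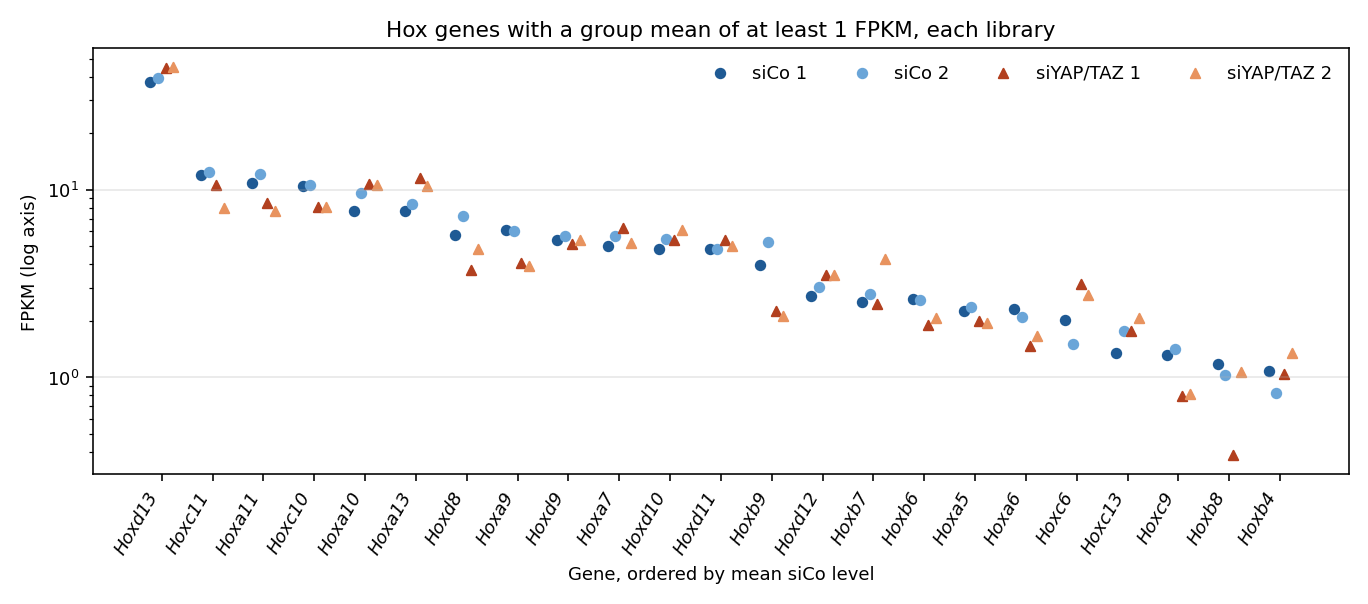
FPKM on a log axis of the 23 Hox genes whose mean reached 1 FPKM in a group, with 1 point for each of the 2 siCo and 2 siYAP/TAZ libraries. Hoxd13 lies at 37.5 to 44.9 FPKM, apart from all others.

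At the other end, Hoxb1, a gene of the hindbrain in the embryo, and its paralog Hoxd1 had no count in any library. A count of 0 allows up to 3 counts, which is 0.0689 to 0.0751 FPKM for Hoxb1 and 0.0859 to 0.0937 FPKM for Hoxd1, and these limits cover counting error only. Hoxb13, known from the prostate and the tail bud and the only group 13 gene near 0, had 0, 1, 0 and 3 counts. Hoxb13, Hoxc12 (8 to 12 counts per library) and Hoxd3 (2 to 9 counts per library) fell with Hoxb1 and Hoxd1 under the filter on low counts, so 34 of 39 Hox genes were tested. A further 10 genes described here were under 1 FPKM in both groups: Hoxa2, Hoxa3, Hoxa4, Hoxb2, Hoxb3, Hoxb5, Hoxc4, Hoxc5, Hoxc8 and Hoxd4. Among these 10, only Hoxc8 passed the test.

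Of the 34 Hox genes tested, 13 (38.2%) passed the edgeR test after knockdown, below the 55.4% of all genes tested. Hoxa10, Hoxa13, Hoxc6 and Hoxd13 were higher (11.8%, compared with 27.6% of all genes). The 9 lower genes (26.5%, compared with 27.7% of all genes) included Hoxa9, Hoxa11, Hoxb9, Hoxc8, Hoxc9, Hoxc10, Hoxc11 and Hoxd8. Changes were small, and 3 genes, Hoxb9 and Hoxc8 among them, passed with at least a 2-fold difference. The median absolute log2 fold change of the Hox genes tested was 0.34, beside 0.33 over all genes, and their median log2 fold change was −0.05. The FPKM ranges of both groups did not overlap for all 13 called genes and for 20 of the 34 tested (58.8%), compared with 77.2% of all genes tested.

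**Figure D3:**
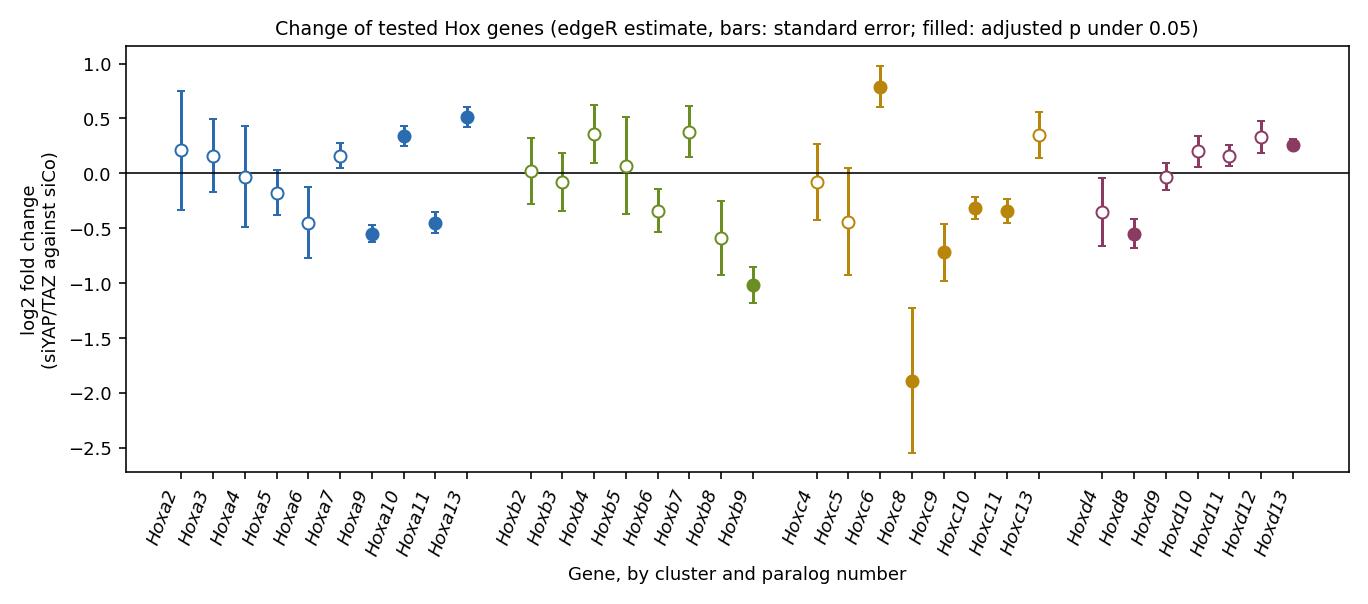
Log2 fold change of siYAP/TAZ against siCo with its standard error for the tested Hox genes described here, filled where the gene was called. The called genes run from −1.89 for Hoxc8 to 0.79 for Hoxc6, and genes without a call lie on either side of 0.

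Of the group 13 genes, Hoxd13 and Hoxa13 rose, and both lie at the 5′ end of their clusters. Their promoters are shown 5′ to 3′ because these genes carry the rise in group 13. The windows run from 250 bases before to 50 bases after the RefSeq start on GRCm38.p6. Capitals mark the letters CCAAT and TATAAA on either strand, which are letter matches and not tested promoter elements. The Hoxd13 window is chr2:74667975-74668274 on the plus strand, with CCAAT at −212 and TATAAA at −126 (minus strand) and −124 (plus strand), sites that overlap. This window ends before the start of the Ensembl gene at 74668310. The Hoxa13 window is chr6:52260831-52261130 on the minus strand, with CCAAT at −36.
Hoxd13: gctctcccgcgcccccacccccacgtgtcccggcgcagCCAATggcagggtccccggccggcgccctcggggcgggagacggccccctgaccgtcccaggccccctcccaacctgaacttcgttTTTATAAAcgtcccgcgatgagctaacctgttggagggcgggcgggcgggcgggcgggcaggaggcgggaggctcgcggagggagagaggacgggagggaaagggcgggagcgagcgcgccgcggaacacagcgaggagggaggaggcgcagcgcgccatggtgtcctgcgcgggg
Hoxa13: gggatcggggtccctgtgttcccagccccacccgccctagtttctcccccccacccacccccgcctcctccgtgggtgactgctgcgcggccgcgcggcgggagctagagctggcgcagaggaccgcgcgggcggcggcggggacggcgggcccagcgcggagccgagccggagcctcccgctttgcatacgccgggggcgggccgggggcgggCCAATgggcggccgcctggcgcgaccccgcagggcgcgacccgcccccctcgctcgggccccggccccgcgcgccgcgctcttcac
The G and C content was 74.3% for Hoxd13 and 81.0% for Hoxa13. Neither window held the TEAD core GGAATG on either strand.

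Hoxd13 (chromosome 2, 74668310 to 74671599, plus strand, mm10), which shapes the digits and the genital tubercle, had 1714 and 1769 counts in siCo and 2078 and 1915 counts in siYAP/TAZ. Each siYAP/TAZ library was above each siCo library. The edgeR log2 fold change was 0.26 ± 0.0504 (SE), a 1.20-fold rise, with an adjusted p of 0.0001471. Hoxa13 (chromosome 6, 52257694 to 52260880, minus strand), its counterpart in the HoxA cluster, had 7.67 and 8.37 FPKM in siCo and 11.6 and 10.5 FPKM in siYAP/TAZ. The groups did not overlap, and the edgeR log2 fold change was 0.51 ± 0.0917 (SE), a 1.42-fold rise, with an adjusted p of 6.603e-05. Hoxc13, which is known for its part in hair and nail formation, had 1.35 and 1.76 FPKM in siCo and 1.76 and 2.08 FPKM in siYAP/TAZ. Its groups met at 1.76 FPKM and it did not pass the test (log2 fold change 0.35 ± 0.212 (SE), edgeR adjusted p = 0.1737). As a group, the group 13 genes summed to 46.5 and 49.7 FPKM in siCo and 58.0 and 57.6 FPKM in siYAP/TAZ.

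In group 12, Hoxd12, a limb gene of the HoxD cluster, had 2.72 and 3.02 FPKM in siCo and 3.49 FPKM in both siYAP/TAZ libraries. The groups did not overlap, but the gene missed the threshold (log2 fold change 0.33 ± 0.148 (SE), edgeR adjusted p = 0.06753).

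The group 11 genes, which pattern the forearm and lower leg and the urogenital tract of the mouse, moved the other way in HoxA and HoxC. Hoxa11 had 10.8 and 12.1 FPKM in siCo and 8.51 and 7.71 FPKM in siYAP/TAZ, with no overlap. The fall was 1.36-fold, with an edgeR log2 fold change of −0.45 ± 0.0957 (SE) and an adjusted p of 0.0004512. Of the exonic bases of Hoxa11, 35.0% also lie in the antisense gene Hoxa11os, and no source used here gives the strand setting of the counting, so reads of the shared bases cannot be told apart. Hoxc11 had 12.0 and 12.4 FPKM in siCo and 10.6 and 8.0 FPKM in siYAP/TAZ, all of the latter lower. The edgeR log2 fold change was −0.34 ± 0.109 (SE), with an adjusted p of 0.01132. Without siYAP/TAZ replicate 2 the value was −0.16 and the adjusted p 0.2759, so this call rested on that library. Hoxd11 had 4.80 and 4.81 FPKM in siCo and 5.42 and 5.0 FPKM in siYAP/TAZ and did not pass the test (log2 fold change 0.16 ± 0.0929 (SE), edgeR adjusted p = 0.1447).

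The group 10 genes split by cluster. Hoxa10, known for its part in the uterus and the lumbar spine, had 7.71 and 9.62 FPKM in siCo and 10.7 and 10.6 FPKM in siYAP/TAZ. The groups did not overlap, with a narrow gap, and the edgeR log2 fold change was 0.34 ± 0.0908 (SE) with an adjusted p of 0.003127. Without siCo replicate 1 the adjusted p of Hoxa10 was 0.09593. Hoxc10, a gene of lumbar motor neurons and the hindlimb, had 10.4 and 10.6 FPKM in siCo and 8.10 FPKM in both siYAP/TAZ libraries. It was lower in both, with an edgeR log2 fold change of −0.32 ± 0.0998 (SE) and an adjusted p of 0.008817, and it had an adjusted p of 0.0772 in DESeq2. Hoxd10, a gene of hindlimb innervation, had 4.84 and 5.47 FPKM in siCo and 5.40 and 6.12 FPKM in siYAP/TAZ, which overlapped. The summed level of group 10 was 22.9 and 25.7 FPKM in siCo and 24.2 and 24.8 FPKM in siYAP/TAZ.

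The group 9 genes, which position the thoracic to lumbar trunk and are active in blood progenitors, were lower in 3 of 4 clusters. Their summed level was 16.7 and 18.3 FPKM in siCo and 12.2 FPKM in both siYAP/TAZ libraries. Hoxa9, the group 9 gene best known from blood stem cells and leukaemia, had 6.09 and 5.99 FPKM in siCo and 4.07 and 3.93 FPKM in siYAP/TAZ. The siYAP/TAZ libraries lay close together and below both controls, and the edgeR log2 fold change was −0.55 ± 0.0811 (SE) with an adjusted p of 6.033e-06. Hoxb9 had 3.95 and 5.26 FPKM in siCo and 2.26 and 2.12 FPKM in siYAP/TAZ. This was the largest fall among Hox genes of at least 1 FPKM, 2.03-fold, with an edgeR log2 fold change of −1.02 ± 0.162 (SE) and an adjusted p of 1.531e-05. Hoxc9, which sets thoracic motor neuron identity in the mouse, had 1.32 and 1.41 FPKM in siCo and 0.790 and 0.814 FPKM in siYAP/TAZ. Its edgeR log2 fold change was −0.72 ± 0.260 (SE) with an adjusted p of 0.02263, and the call was lost without siCo replicate 2, siYAP/TAZ replicate 1 or siYAP/TAZ replicate 2 (adjusted p 0.07905 to 0.1055) and in DESeq2. Hoxd9 had 5.39 and 5.66 FPKM in siCo and 5.12 and 5.36 FPKM in siYAP/TAZ and did not pass the test (log2 fold change −0.03 ± 0.124 (SE), edgeR adjusted p = 0.8447).

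The group 8 genes, which act in the thoracic trunk, had lower values in siYAP/TAZ replicate 1 than in siCo. Hoxd8, the most abundant of them, had 5.74 and 7.20 FPKM in siCo and 3.75 and 4.85 FPKM in siYAP/TAZ. The groups did not overlap, and the edgeR log2 fold change was −0.55 ± 0.134 (SE) with an adjusted p of 0.001526. Hoxc8, a gene of brachial motor neurons, had 11 and 13 counts in siCo and 2 and 4 counts in siYAP/TAZ. Its edgeR log2 fold change of −1.89 ± 0.658 (SE), with an adjusted p of 0.01898, rested on few counts, and the adjusted p was 0.07523 without siCo replicate 2 and 0.1785 without siYAP/TAZ replicate 1. Hoxb8 had 1.17 and 1.03 FPKM in siCo and 0.385 and 1.06 FPKM in siYAP/TAZ, so the siYAP/TAZ libraries differed from each other. It did not pass the test (log2 fold change −0.59 ± 0.338 (SE), edgeR adjusted p = 0.1504), and without siYAP/TAZ replicate 2 the log2 fold change was −1.47 with an adjusted p of 0.006154.

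Hoxa9 and Hoxd8 are the genes of groups 8 and 9 with the highest levels that fell, and their promoter windows are shown for comparison with those of the group 13 genes. The capitals mark GGAATG in Hoxa9 and CCAAT in Hoxd8. The Hoxa9 window is chr6:52227321-52227620 on the minus strand, inside the longer Ensembl gene (52223100 to 52231089), with GGAATG at −48. The Hoxd8 window is chr2:74704365-74704664 on the plus strand, with CCAAT at −62.
Hoxa9: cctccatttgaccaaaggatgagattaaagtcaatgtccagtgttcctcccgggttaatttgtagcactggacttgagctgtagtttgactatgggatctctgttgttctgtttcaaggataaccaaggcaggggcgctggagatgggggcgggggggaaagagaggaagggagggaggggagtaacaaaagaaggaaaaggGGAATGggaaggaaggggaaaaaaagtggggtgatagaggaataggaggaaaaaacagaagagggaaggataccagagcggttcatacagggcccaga
Hoxd8: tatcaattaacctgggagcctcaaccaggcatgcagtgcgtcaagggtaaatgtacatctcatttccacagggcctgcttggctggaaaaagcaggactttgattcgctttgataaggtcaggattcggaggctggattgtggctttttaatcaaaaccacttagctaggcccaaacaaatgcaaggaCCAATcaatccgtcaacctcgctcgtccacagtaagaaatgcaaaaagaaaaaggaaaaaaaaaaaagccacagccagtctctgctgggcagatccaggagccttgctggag
The G and C content was 49.7% for Hoxa9 and 46.7% for Hoxd8.

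RefSeq promoter windows were matched by symbol for 22 of the 39 Hox genes, some with more than 1 start, which gave 24 windows. Most are of HoxA and HoxD, and the other clusters are covered only by Hoxb1, Hoxb4, Hoxb8 and Hoxc4. The called genes Hoxb9, Hoxc6, Hoxc8, Hoxc9, Hoxc10 and Hoxc11 had no window, so the shares below do not describe them. The TEAD core GGAATG was found on either strand in 2 of 24 Hox windows (8.3%), those of Hoxa9 and Hoxd10, and in 14.7% of all 32851 windows of the same length. The AP-1 motif TGANTCA was found in 1 Hox window (4.2%, compared with 7.8% of all). The HOX-PBX motif TGATTNAT was found in 2 (8.3%, compared with 3.2%) and TATAAA in 4 (16.7%, compared with 13.6%). CCAAT was found in 15 Hox windows (62.5%, compared with 37.4%). The median G and C content was 57.7% in Hox windows and 52.7% in all windows. These are letter matches in short windows and not measured binding.

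Among the genes of groups 5 to 7, which pattern the neck and upper trunk, only Hoxc6 passed the test. Hoxc6 had 2.03 and 1.5 FPKM in siCo and 3.14 and 2.75 FPKM in siYAP/TAZ, both above the controls. Its edgeR log2 fold change was 0.79 ± 0.189 (SE), a 1.72-fold rise and the largest among Hox genes, with an adjusted p of 0.001283. Its paralogs Hoxa6, with 2.30 and 2.09 FPKM in siCo and 1.46 and 1.66 FPKM in siYAP/TAZ, and Hoxb6, with 2.60 and 2.57 FPKM in siCo and 1.90 and 2.07 FPKM in siYAP/TAZ, had lower values without overlap but did not pass the edgeR test. Hoxa7 had 5.0 and 5.63 FPKM in siCo and 6.27 and 5.20 FPKM in siYAP/TAZ, which overlapped. Hoxb7 had 2.53 and 2.77 FPKM in siCo and 2.45 and 4.26 FPKM in siYAP/TAZ, on either side of the controls. Hoxa5, a gene needed for lung formation in the mouse, had 2.26 and 2.36 FPKM in siCo and 1.99 and 1.95 FPKM in siYAP/TAZ and did not pass the test (edgeR adjusted p = 0.4687).

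Genes of groups 1 to 4 act in the hindbrain, the pharyngeal arches and the neck. Hoxb4, known from blood progenitors, had 1.08 and 0.821 FPKM in siCo and 1.04 and 1.34 FPKM in siYAP/TAZ, and these overlapped. Hoxa2, Hoxa3, Hoxa4, Hoxb2, Hoxb3, Hoxc4 and Hoxd4 had log2 fold changes from −0.35 (Hoxd4) to 0.21 (Hoxa2) and did not pass the edgeR test. Hoxb3 and Hoxd4 share 52.9% and 52.3% of their exonic bases with other genes and are uncertain for that reason as well as for their low counts.

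Changes alternated along the 5′ end of HoxA. From the 3′ side, Hoxa9 fell, Hoxa10 rose, Hoxa11 fell and Hoxa13 rose, and each lies next to the last with no other Hox gene between. The ratio of Hoxa10 to Hoxa9 counts was 0.741 and 0.940 in siCo and 1.54 and 1.58 in siYAP/TAZ, although only 108 bases separate the Ensembl genes. The RefSeq start of Hoxa9 lies inside its longer Ensembl gene, so this gap depends on the gene model. The ratio of Hoxa11 to Hoxa10 counts was 0.976 and 0.877 in siCo and 0.558 and 0.509 in siYAP/TAZ. The ratio of Hoxa13 to Hoxa11 counts, across 11884 bases, was 0.770 and 0.751 in siCo and 1.47 and 1.48 in siYAP/TAZ. In HoxC, the ratio of Hoxc8 to Hoxc6 counts was 0.122 and 0.200 in siCo and 0.0141 and 0.0351 in siYAP/TAZ. These 4 pairs were chosen because their members were called in opposite directions, so the ratios are a description. Other neighbours moved together, as Hoxc8, Hoxc9, Hoxc10 and Hoxc11 were all called lower in edgeR. None of these HoxC calls held in DESeq2 (adjusted p 0.0648 to 0.1375), and that of Hoxc8 rested on few counts. The alternation in HoxA also needs the call of Hoxa10, which was lost in both limma fits. In HoxD the log2 fold changes were −0.55 for Hoxd8, −0.03 for Hoxd9, 0.20 for Hoxd10, 0.16 for Hoxd11, 0.33 for Hoxd12 and 0.26 for Hoxd13, of which the first and the last passed the test.

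**Figure D4:**
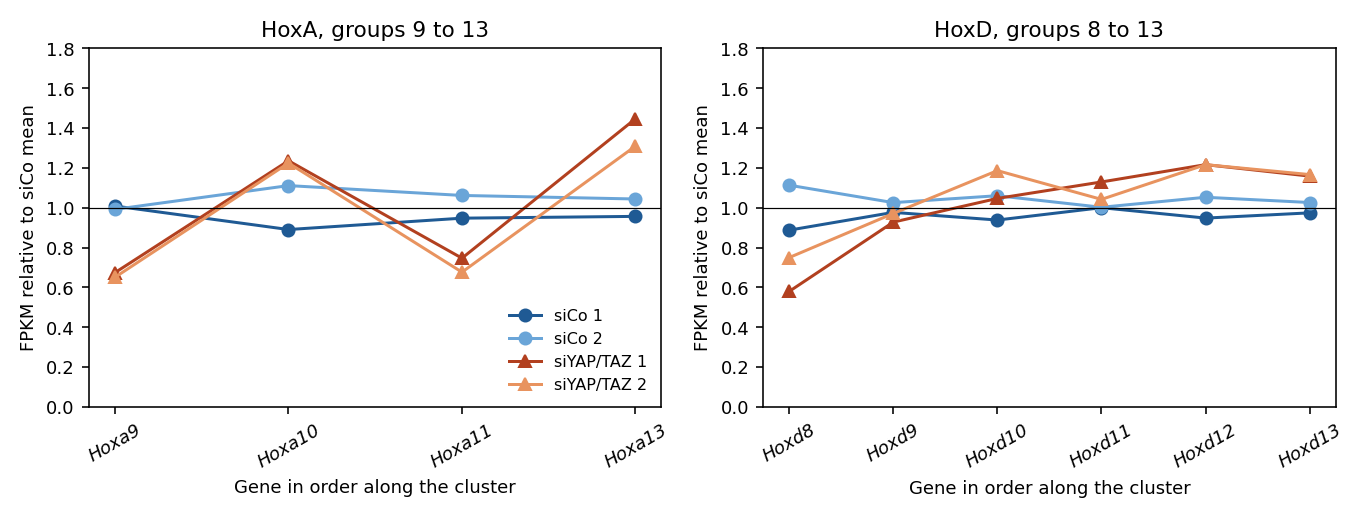
FPKM of each library divided by the siCo mean of the gene, for the HoxA genes of groups 9 to 13 (left) and the HoxD genes of groups 8 to 13 (right) in their order along the cluster, with 1 line for each of the 4 libraries. The siYAP/TAZ lines lie below the siCo lines at Hoxa9 and Hoxa11, above them at Hoxa10 and Hoxa13, and pass from below to above along HoxD from Hoxd8 to Hoxd13.

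The noncoding genes inside the clusters were mostly low. Of 19 listed, 16 were in the table and 9 were tested, of which 1 rose and 0 fell in edgeR (0 with an unadjusted p under 0.05 fell, 0 fell in DESeq2 and 2 fell in limma), or 11.1% called compared with 55.4% of all genes. The gene that rose was Hoxa11os, the antisense partner of Hoxa11, with 6.38 and 7.51 FPKM in siCo and 8.66 and 8.42 FPKM in siYAP/TAZ. Its edgeR log2 fold change was 0.34 with an adjusted p of 0.003686, opposite in sign to that of Hoxa11, and the call was lost without siCo replicate 1. Hotair, a long noncoding RNA of the HoxC cluster studied for its ties to Polycomb, had 1.49 and 2.21 FPKM in siCo and 1.81 and 1.74 FPKM in siYAP/TAZ, which overlapped. Hotairm1, a long noncoding RNA of the HoxA cluster, had 47 and 49 counts in siCo and 38 and 28 counts in siYAP/TAZ and did not pass the test (log2 fold change −0.48, edgeR adjusted p = 0.1581). Hotair, Hotairm1 and Mir196a-1 are named after their values were seen.

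The clusters also hold miRNA genes whose products are known to act on Hox transcripts. Their mature forms are shown from RefSeq with the seed, bases 2 to 8, in capitals, because the genes of each pair share a seed across clusters. miR-196a is made from HoxB and HoxC, miR-196b from an exon of the Ensembl gene Hoxa9, miR-10a from HoxB and miR-10b from HoxD.
miR-196a-5p: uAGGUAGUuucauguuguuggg
miR-196b-5p: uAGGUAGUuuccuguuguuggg
miR-10a-5p: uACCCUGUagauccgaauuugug
miR-10b-5p: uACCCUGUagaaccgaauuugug
The 3′ UTR of Hoxb8 holds a site for miR-196 (chr11:96284888-96284909, exon 2, plus strand, mm10), with the bases complementary to miR-196a-5p in capitals.
Hoxb8 site: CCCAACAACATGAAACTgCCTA
It pairs with 21 of 22 bases, whereas the best match over all 22 bases without gaps in the other Hox transcripts was 15. Seed matches were not searched for, so the other transcripts may hold sites that this search cannot show. Libraries of this kind do not measure mature miRNAs. At the loci, Mir196a-1 had 16 and 20 counts in siCo and 9 and 10 counts in siYAP/TAZ, which did not pass the test (edgeR adjusted p = 0.1294), and Mir10a, Mir10b, Mir196a-2, Mir196b and Mir615 had no count in any library. The values of Hoxb8 itself, given above, did not separate the groups.

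The TALE homeodomain proteins PBX, MEIS and PKNOX bind DNA together with HOX proteins. Of 9 such genes tested, 3 rose, 1 fell and 5 did not pass (44.4% called, compared with 55.4% of all genes). Pbx2 had 13.5 and 11.7 FPKM in siCo and 18.1 and 18.7 FPKM in siYAP/TAZ (log2 fold change 0.59, edgeR adjusted p = 2.018e-07). Meis1 had 0.938 and 0.879 FPKM in siCo and 1.26 and 1.08 FPKM in siYAP/TAZ (log2 fold change 0.41, edgeR adjusted p = 0.0118). Pknox1, which pairs with PBX proteins, had 4.07 and 3.90 FPKM in siCo and 2.88 and 2.89 FPKM in siYAP/TAZ (log2 fold change −0.42, edgeR adjusted p = 0.0003216). None of Pbx2, Meis1 and Pknox1 overlapped between groups. Of the genes that did not pass, Meis3 had the highest level (10.1 FPKM in siCo and 11.0 FPKM in siYAP/TAZ), followed by Pbx3 (3.01 and 2.83 FPKM), Meis2 (2.21 and 2.23 FPKM), Pbx4 (0.656 and 0.806 FPKM) and Pknox2 (0.270 and 0.237 FPKM).

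**Figure D5:**
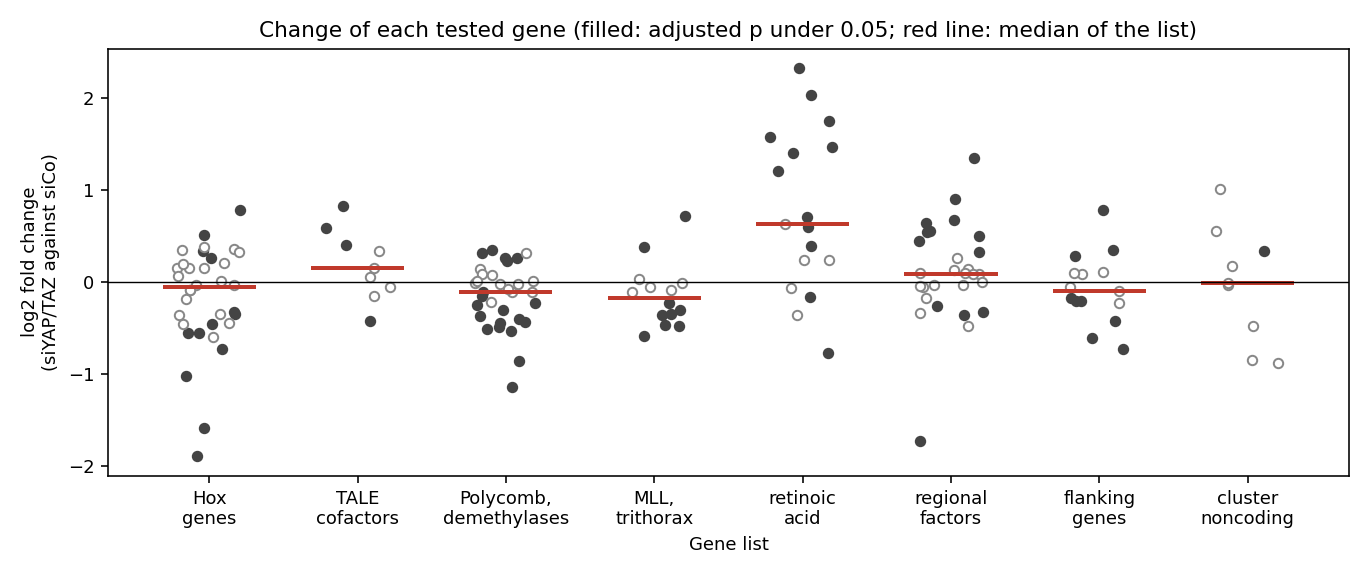
Log2 fold change of siYAP/TAZ against siCo for the tested genes of the Hox genes and of the lists set beside them, 1 point per gene, with the median of each list and without the lists of cell type markers. The retinoic acid list has a median of 0.64 and the Hox genes have −0.05.

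Retinoic acid, made from vitamin A, is a known inducer of Hox genes in embryos, where the 3′ genes respond first. Of 17 genes of its synthesis, breakdown and signalling that were tested, 10 rose, 2 fell and 5 did not pass (70.6% called, compared with 55.4% of all genes, and a median log2 fold change of 0.64, compared with 0.00 over all genes). Aldh1a3, an enzyme that makes retinoic acid, rose from 2.49 to 12.2 FPKM (log2 fold change 2.33, edgeR adjusted p = 1.573e-14). Dhrs3, which turns retinal back to retinol, rose from 5.45 to 21.7 FPKM (log2 fold change 2.04), Cyp26b1, which breaks retinoic acid down, from 2.79 to 9.15 FPKM (log2 fold change 1.75), and Stra6, the retinol transporter, from 2.42 to 7.02 FPKM (log2 fold change 1.58). The count of 2 that fell was 1 without siCo replicate 2 or siYAP/TAZ replicate 1 and 0 without siYAP/TAZ replicate 2. The list thus holds both makers and breakers of retinoic acid among the genes that rose. The tested Hox genes of groups 2 to 4 did not pass the test. The part of retinoic acid in these values was not tested.

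Polycomb complexes keep Hox genes silent, and the MLL and trithorax complexes keep them active. Of 32 Polycomb genes and related demethylases tested, 5 rose (3 without siYAP/TAZ replicate 1), 14 fell and 13 did not pass (59.4% called). The catalytic subunit gene Ezh2 fell from 10.7 to 5.69 FPKM (log2 fold change −0.86, edgeR adjusted p = 2.641e-10). Epop fell from 3.28 to 1.44 FPKM (log2 fold change −1.14), Phf19 from 5.37 to 3.6 FPKM (log2 fold change −0.53) and Cbx2 from 3.39 to 2.30 FPKM (log2 fold change −0.51). Epop and Phf19 encode accessory subunits of the Ezh2 complex, and Cbx2 a reader of its histone mark. Of 14 genes of the MLL list tested, 2 rose, 7 fell and 5 did not pass (64.3% called). Aff4, an elongation factor subunit, rose from 11.4 to 18.2 FPKM (log2 fold change 0.72). Dpy30, a shared subunit of the MLL complexes, fell from 35.5 to 23.2 FPKM (log2 fold change −0.58), Mllt10 from 7.24 to 5.06 FPKM (log2 fold change −0.48) and the histone methyltransferase gene Dot1l from 16.0 to 11.2 FPKM (log2 fold change −0.46). The shares called in either direction in both lists were close to the 55.4% of all genes. By direction, the genes that fell, 14 of 32 and 7 of 14, were a larger share than the 27.7% of all genes. Those that rose, 5 of 32 and 2 of 14, were a smaller share than the 27.6% of all genes.

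Other transcription factors of regional identity were set beside the Hox code. Of 28 tested, 9 rose, 4 fell (2 when either siYAP/TAZ library was left out) and 15 did not pass (46.4% called, compared with 55.4% of all genes). Twist1, a factor of mesenchyme, rose from 35.7 to 88.1 FPKM (log2 fold change 1.35, edgeR adjusted p = 1.242e-14). Msx1, a factor of limb and craniofacial mesenchyme, rose from 6.28 to 11.4 FPKM (log2 fold change 0.91), Hand2, a factor of heart and limb, from 10.5 to 16.3 FPKM (log2 fold change 0.68) and Isl1, which marks hindlimb and genital progenitors in the mouse embryo, from 15.2 to 23.1 FPKM (log2 fold change 0.65). Tbx5, a factor of heart and forelimb, rose from 2.53 to 3.58 FPKM (log2 fold change 0.55). The hindlimb factors Tbx4 and Pitx1 did not pass the test. Tbx4 had 16.7 and 15.3 FPKM in siCo and 16.5 and 16.6 FPKM in siYAP/TAZ, and Pitx1 had 4.19 and 5.43 FPKM in siCo and 4.52 and 4.51 FPKM in siYAP/TAZ. The heart factor Nkx2-5 had no count in any library. Tbx4, Tbx5, Pitx1 and Nkx2-5 were chosen after their values were seen.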

How the data were processed

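Per the labels and the study's methods, reads were trimmed with Trimmomatic, aligned to mm10 with HISAT2 (versions not given) and counted per Ensembl gene from uniquely mapped reads. That counting is described for RNA-seq of tissue, and no source used here gives the strand setting. The authors deposited raw counts, and FPKM values equal to the count over exonic length and library total for all 55573 genes of each siCo library, so FPKM was computed by this formula for all libraries. The names of the siYAP/TAZ columns give the group and not the sample, so replicates 1 and 2 follow their order in the table, and 2 FPKM columns of per-sample values were not used. A further 57 rows name no single gene, hold 0 counts and were left out (1 of them holds a list of gene identifiers). The rat single-nucleus samples were not analysed here.

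The comparison used R 4.3.3 and edgeR 4.0.16 (TMM factors, filterByExpr at a minimum count of 10, quasi-likelihood test, no covariate, Benjamini-Hochberg adjustment over all 15479 genes tested, threshold 0.05). Each SE is the size of the log2 fold change divided by the square root of F. The spread rests mostly on the trend over all genes, with 18.6 prior and 2 residual degrees of freedom. Replicate libraries differed beyond sampling noise (chi-square per gene 3.17 in siCo and 1.95 in siYAP/TAZ), so none was counted as a duplicate. In data simulated for these 15479 genes, 200 of them changed, edgeR called 80.6% of genes given a log2 change of 1 and 98.9% of those given 2. Unchanged genes made up 6.52% of its calls. The simulation used a fixed spread that was not estimated from these data, and far fewer changed genes than were called here. Most Hox calls were also smaller than a log2 change of 1, so these shares do not describe the Hox calls.

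Named genes were every Hox gene with a mean of at least 1 FPKM in a group or a call, every tested TALE gene, Yap1, Wwtr1 and up to 4 members of each other list with the largest change among called genes that reached 1 FPKM in a group. Results of 2 of these genes are not reported here. Marker genes were named to check the label of the cells. The Hox genes and the lists were chosen with earlier results of these data known. Coordinates and exon overlaps are from GENCODE M21 (GRCm38), whose coordinates and lengths matched those of the files for all 39 Hox genes. Promoter and miRNA sequences are from RefSeq (GRCm38.p6). Protein sequences were not used here. Alternatives were DESeq2 1.42.0, no filter, a filter of 1 CPM in 2 libraries, scaling by library totals, limma 3.58.1 on log2(FPKM + 1) and log2(FPKM + 0.1), and leaving out each library. Python 3.11.15 with pandas 2.3.3 made the tables, and matplotlib 3.10.9 the figures.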

Additional observations from a re-analysis of the deposited data

How the results depend on the processing

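Of the 13 Hox calls, 8 held in all 10 alternatives (among them Hoxa9, Hoxa11, Hoxa13, Hoxb9, Hoxc6, Hoxd8 and Hoxd13), and none of the 13 changed direction. In DESeq2 the count of lower Hox genes was 5 instead of 9 (Hoxc8, Hoxc9, Hoxc10 and Hoxc11 were lost). DESeq2 also called fewer of all genes, 3287 lower instead of 4290 and 3295 higher instead of 4279. The cause was not tested. With 1 library left out, higher Hox genes numbered 3 to 5 and lower ones 7 to 9, beside 3528 to 4130 and 3522 to 4186 of all genes. Hoxa10 was lost in both limma fits, where Hoxa6 and Hoxb6 passed. Hoxb7 passed without siYAP/TAZ replicate 1 (0.73), and its log2 fold change ran from −0.07 to 0.73 with 1 library left out. The same range was −0.07 to 0.01 for Hoxd9, −0.06 to 0.18 for Meis2 and −0.34 to 0.08 for Pknox2, none of which passed. Scaling by library totals moved the median log2 fold change of all genes to −0.04, with 3819 genes higher and 4809 lower. Of 1019 other values over these alternatives (single genes and list counts), 956 kept direction and call, 49 lost a call, 8 gained a call and 6 reversed. No paired analysis was possible because the siYAP/TAZ columns cannot be tied to numbered samples. With 2 libraries per group and few counts, genes under 1 FPKM could be called only for changes as large as that of Hoxc8.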

Other observations

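The genes that border the Hox clusters were followed as well. Of 15 tested, 3 rose, 6 fell and 6 did not pass in edgeR (60.0% called, compared with 55.4% of all genes). Calcoco1, a transcriptional coactivator and autophagy receptor gene beside HoxC, had 720 and 645 counts in siCo and 1107 and 1145 counts in siYAP/TAZ, a log2 fold change of 0.79. Cbx5, also beside HoxC, which encodes the heterochromatin protein HP1 alpha, fell from 22.7 to 13.3 FPKM (log2 fold change −0.73), Lnpk, beside HoxD, from 4.36 to 2.79 FPKM (log2 fold change −0.60) and Atp5g3, a subunit of the ATP synthase, from 96.4 to 69.7 FPKM (log2 fold change −0.42). Each had libraries that did not overlap between groups. Evx2, the homeobox gene next to Hoxd13, had 122 and 111 counts in siCo and 100 and 109 counts in siYAP/TAZ, which did not pass (edgeR adjusted p = 0.6827, named after its values were seen), while Hoxd13 rose.

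The ParaHox and Cdx genes, the evolutionary relatives of the Hox clusters, were near absent. None of 6 was tested, and none had more than 1 count in a library.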
